A study of Ovis aries with 8 samples.

Results

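The 8 sequencing pools of this study fell into 2 sides that cut across its feeding groups, and all 8 pools were assigned. Side A held food-restricted pools 1 and 2 with well-fed pools 3 and 4, and side B held food-restricted pools 3 and 4 with well-fed pools 1 and 2. A pool was placed by the sign of its score on the first principal component of its log2 CPM values, where CPM is a gene's count scaled to a common library size, after TMM factors that correct for a few genes that take up much of a library. The sides therefore come from the same values that are described below, every difference in a gene's level between them is a description with no test, and their cause may be technical. The labels tie no pool to a year, an extraction day or a sequencing run, so none of these could be set against the sides.

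Each pool mixed RNA from 15 adult Ile-de-France ewes, so that the 60 food-restricted and the 60 well-fed (ad lib) animals, 30 of each in each of 2 years, gave 4 pools a group. All animals were adult females of that breed, and no genetic or drug treatment is given in the labels. The tissue was the mediobasal hypothalamus, the floor of the brain around the third ventricle. A pool is a mix, so pools vary as mixes do and not as single animals do.

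The mediobasal hypothalamus holds the arcuate nucleus, where neurons that make AGRP and NPY drive feeding and neurons that make POMC restrain it. It adjoins the median eminence, through which the axons of magnocellular vasopressin (AVP) and oxytocin (OXT) neurons pass, and the pars tuberalis, a sleeve of pituitary tissue around the stalk. PITX1 is a transcription factor of the pituitary lineage, APOE a lipid carrier secreted mainly by astrocytes, MBP a major protein of compact myelin, and MIF a small cytokine with a short transcript. In bulk RNA, fewer cells of a type and less RNA per cell cannot be told apart. NKX2-1, a transcription factor that marks the ventral hypothalamus, was at 38.5 to 55.0 CPM in the 8 pools, and the arcuate transcripts AGRP, NPY and POMC were present in all of them.

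Sequencing depth overlapped between the sides. Total counts averaged about 42512000 on side A and 41730000 on side B (n = 4 pools each; exact two-sided permutation p = 0.83 over 70 assignments, the smallest possible being 0.0286). The number of genes with at least 1 count was 20351 on average on side A and 20367 on side B (exact permutation p = 0.971). Single pools ran from 36192025 to 48125991 counts, and the upper limit behind a count of 0, taken as 3 counts, was 0.0625 to 0.0845 CPM for counting error alone. The filter on low counts kept 18193 of the 33609 listed genes for all comparisons.

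The first principal component held 34.7% of the variance over these genes. Food-restricted pools 1 and 2 scored 31.1 and 46.2 and well-fed pools 3 and 4 scored 37.3 and 29.4, while food-restricted pools 3 and 4 scored -64.2 and -9.23 and well-fed pools 1 and 2 scored -33.0 and -37.7. The pools nearest to the dividing score of 0 were food-restricted pool 4 on side B and well-fed pool 4 on side A. Food-restricted pool 4 thus lay closer to the other side than any other pool. It was also the highest side B pool for 639 of the 812 separated genes at least 2-fold higher on side A (described below). The second component, with 22.2% of the variance, set food-restricted pool 1 (75.4) apart from the other 7 pools (-25.3 to 16.2). When each feeding group was analysed alone, the sign of its own first component parted pools 1 and 2 from pools 3 and 4. The same values had set the sides, so this is a description and not a second, independent result. In the food-restricted group pool 3 lay farthest out and pool 4 near 0. The well-fed pools 1 to 4 scored -37.0, -46.2, 46.2 and 36.9 on a component of 56.8%, and food-restricted pools 1 to 4 scored 45.9, 35.6, -74.2 and -7.28 on one of 48.2%.

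**Figure D1:**
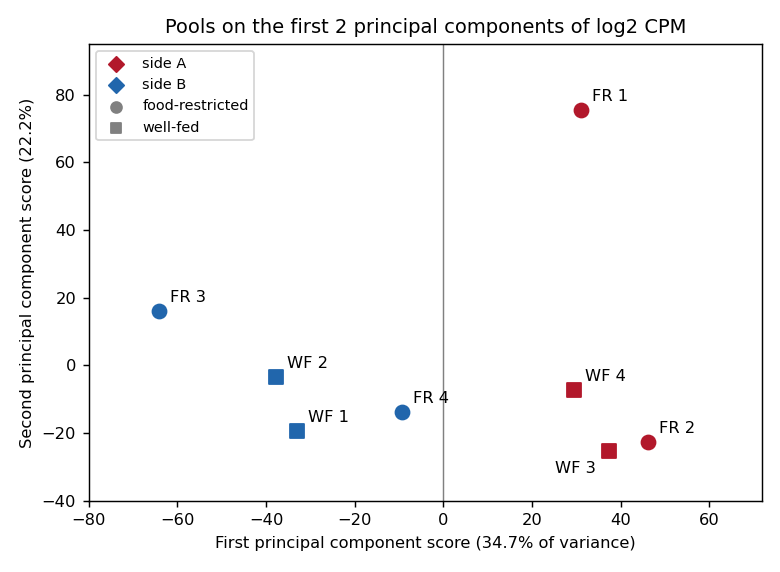
Scores of the 8 pools on the first (horizontal) and second (vertical) principal component of log2 CPM. Red marks side A and blue side B, circles are food-restricted (FR) and squares well-fed (WF) pools, and the vertical line is the score of 0 that separates the sides; FR 4 lies nearest to it and FR 1 stands alone at the top.

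The difference was lopsided: the genes that were much higher on side A were many, and those much lower were few and low in level. The 4 side A pools all lay above the 4 side B pools in 2584 of 18193 genes (14.2%) and all below in 1624 (8.93%), or 23.1% in either direction. Of those, 812 (4.46%) were at least 2-fold higher and 52 (0.286%) at least 2-fold lower on side A. Among the 13019 genes at a mean of 5 CPM or more, 561 were separated and at least 2-fold higher, and 1, the uncharacterised LOC101118761, at least 2-fold lower. The log2 difference, side A minus side B with feeding as a covariate, had a median of -0.05 over all genes, with its 5th percentile at -0.51 and its 95th at 1.12, and was above 0 in 45% of genes. The median moved with the scaling, to -0.0852 with library totals and -0.11 with upper-quartile scaling, so its size depends on the scaling. It stayed below 0 in all 16 alternatives. The share of the separated genes that were higher on side A was 61.4%, but 47.4% with upper-quartile scaling. Without food-restricted pool 1 the count of genes wholly below was 2716 in place of 1624, and it ran from 1564 to 2716 over the pools left out. With any 1 pool left out the count at least 2-fold lower was 78 to 93 in place of 52. Fewer pools then have to separate, and the cause of these changes was not tested.

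The separated share also varied with level. With the genes cut into 5 equal groups by mean CPM, from the lowest to the highest group, 5.22%, 12.4%, 17.4%, 18.4% and 17.6% lay wholly above on side A, and 1.9%, 4.4%, 9.95%, 12.9% and 15.5% wholly below. Within the 812 genes at least 2-fold higher, food-restricted pool 4 was the highest side B pool in 639, and food-restricted pool 2 was the highest side A pool in 545. Food-restricted pool 1 was the lowest side A pool in 402 of them and well-fed pool 1 the lowest side B pool in 375.

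**Figure D2:**
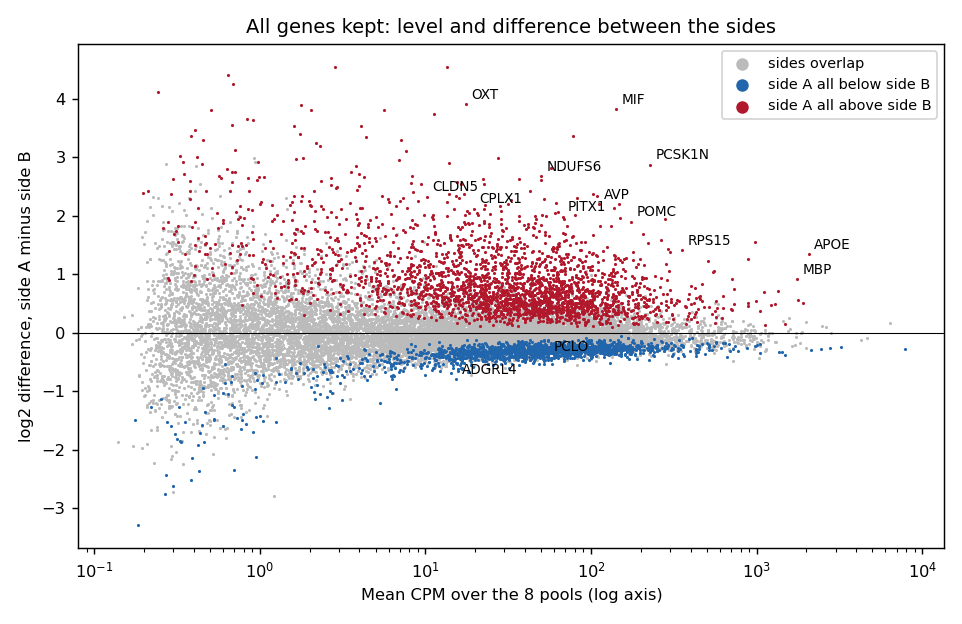
Each dot is 1 of the 18193 genes, by its mean CPM over the 8 pools (horizontal, log axis) and its log2 difference between the sides (vertical). Red genes have all 4 side A pools above all 4 side B pools and blue genes the reverse; at all levels above a few CPM the red cloud reaches far higher than the blue cloud reaches down.

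Among pituitary genes, the sides parted POMC, PITX1, LHB and LHX3 widely and left most hormone genes overlapping. In all single-gene values below, side A is given as food-restricted pools 1 and 2, then well-fed pools 3 and 4, and side B as food-restricted pools 3 and 4, then well-fed pools 1 and 2. POMC (gene ID 443212), the precursor of ACTH and the melanocortins in corticotrophs as well as arcuate neurons, was at 233, 267, 244 and 359 CPM on side A and at 56.7, 118, 50.5 and 73.3 CPM on side B. No pool of one side reached the other, the means were 276 ± 57.3 and 74.7 ± 30.6 CPM (SD, n = 4 each), and the log2 difference was 1.90, or 3.73-fold. PITX1 (101119560) was at 84.2, 114.8, 112 and 117 CPM on side A against 24.3, 43.0, 18.5 and 24.5 CPM on side B. Its log2 difference was 1.99 (107 ± 15.4 against 27.5 ± 10.6 CPM), with food-restricted pool 4 again the highest of side B.

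LHB (443395), the beta subunit of luteinizing hormone, was at 50.5, 56.0, 99.6 and 117 CPM on side A and at 21.0, 33.1, 8.55 and 17.4 CPM on side B, a log2 difference of 2.01. The well-fed pools supplied both its highest and its lowest values. LHX3, a transcription factor of early pituitary development, was higher by 1.00 on the log2 scale (73.0 ± 20.1 against 36.6 ± 7.21 CPM). Of 18 members compared, 5 were separated upwards (27.8%, against 14.2% of all genes) and 0 downwards. CGA, the alpha subunit shared by the glycoprotein hormones and abundant in the pars tuberalis, was at 1153 ± 262 against 1199 ± 267 CPM (log2 difference -0.06), and TSHB, the thyrotropin beta subunit, at 11.4 ± 4.44 against 11.6 ± 5.76 CPM (0.06). PRL (prolactin) had a log2 difference of -0.55 and GH (growth hormone) of -0.73, both with overlapping pools. In all, 10 members were higher and 8 lower on side A, with a median log2 difference of 0.04 beside -0.05 for all genes, a median that changed sign in 2 of 16 alternatives. The summed level of the list ran from 1837 to 2546 CPM on side A and from 1369 to 2106 CPM on side B, so its ranges overlapped. GH1 had no row, and POU1F1, TRHR and LHX4 were below the filter on low counts.

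Of the 7 markers, the magnocellular hormone OXT had the largest difference, and AVP was separated as well. OXT (443390) was at 15.0, 52.7, 26.4 and 36.6 CPM on side A and at 2.17, 6.02, 0.857 and 1.07 CPM on side B. That is a log2 difference of 3.91, or 15.1-fold, and within side A the pools themselves spanned 15.0 to 52.7 CPM. AVP (443477) was at 127, 236, 148 and 213 CPM against 35.0, 72.2, 26.4 and 30.8 CPM, a log2 difference of 2.20 (181 ± 51.9 against 41.1 ± 21.0 CPM). Both hormones were lowest of side A in food-restricted pool 1 and highest of side B in food-restricted pool 4. The transcription factors that specify these neurons did not share one direction. OTP had a log2 difference of 1.05 with overlapping pools, SIM1 of -0.36 and POU3F2 (BRN2) of -0.16, the last with 18.6 ± 2.60 against 20.7 ± 2.06 CPM. CREB3L1, which acts on the AVP gene, was separated and higher by 0.51, and the activity-induced receptor gene NR4A1 by 0.69. Of the 10 members, 6 were higher and 4 lower on side A (median 0.60), 4 (40%) were separated upwards and 0 downwards, against 14.2% and 8.93% of all genes. The summed level, 490.0 to 659 CPM against 339 to 427 CPM, did not overlap.

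**Figure D3:**
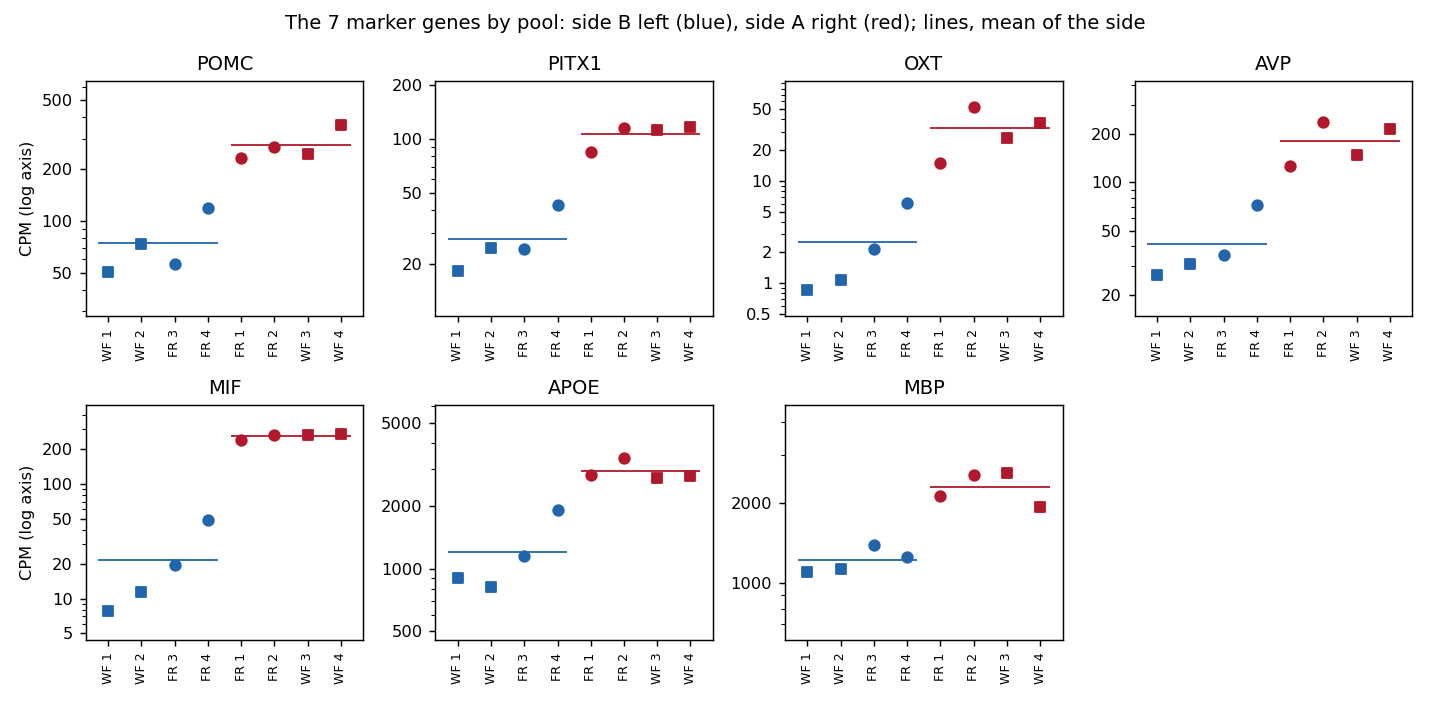
CPM of POMC, PITX1, OXT, AVP, MIF, APOE and MBP in each pool (log axes that do not start at 0), with side B at the left in blue and side A at the right in red, circles for food-restricted (FR) and squares for well-fed (WF) pools, and a line at each side's mean. The sides do not overlap for any of the 7 genes, and FR 4 is the highest blue point in 6 of them.

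Short, abundant transcripts held some of the largest differences, though most members of these classes differed little. MIF (780466) was at 239.8, 267, 269.5 and 273 CPM on side A and at 19.8, 48.5, 7.87 and 11.4 CPM on side B. Its log2 difference was 3.82, or 14.2-fold (262 ± 15.2 against 21.9 ± 18.4 CPM), and in proportion to their level the side B pools differed far more among themselves than the side A pools did. CST3 (cystatin C, a secreted protease inhibitor) was at 1423, 1437, 1416 and 1491 CPM against 508, 697, 322 and 478 CPM, a log2 difference of 1.55. Like MIF, it was nearly constant over side A and variable over side B. ELOB, a small subunit of the elongin complex, was higher by 0.71, whereas UBB (ubiquitin, 0.02), SOD1 (superoxide dismutase, 0.05) and TMSB10 (thymosin, -0.15) overlapped. Of 21 such housekeeping genes compared, 12 were higher and 9 lower on side A, and 6 (28.6%, against 14.2% of all genes) were separated upwards and 0 (against 8.93%) downwards. The median of 0.05 changed sign in 1 of 16 alternatives.

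Cytosolic ribosomal proteins, also encoded by short transcripts, behaved alike. RPS15, of the small subunit, was at 529, 449, 457 and 592 CPM against 189.6, 342, 114 and 158 CPM, a log2 difference of 1.41, while RPL22, of the large subunit, was at 378 ± 98.2 against 454 ± 104 CPM (-0.27) with overlapping pools. RPLP2 (1.18), RPL13 (1.04) and RPL29 (0.93) were the next highest. Of 77 ribosomal protein genes, 45 were higher and 32 lower on side A, and 17 (22.1%, against 14.2% of all genes) were separated upwards and 0 (against 8.93%) downwards, with a median of 0.05 that changed sign in 3 of 16 alternatives. The family thus split by gene and did not move as a block.

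Of the mitochondrial ribosomal proteins, 29 of 74 genes (39.2%) lay wholly above on side A, against 14.2% of all genes, and 2 (2.7%) wholly below, against 8.93%. MRPL41, of the large mitoribosomal subunit, was at 55.8, 63.0, 49.8 and 48.2 CPM against 12.9, 17.0, 6.96 and 9.54 CPM, a log2 difference of 2.28. MRPS25 (1.89) and MRPS2 (1.41) followed, and MRPL1, with overlapping pools, had -0.39. MRPL57 was at 0.910 to 1.58 CPM on side A and 0.0659 to 0.213 CPM on side B, where the lowest value is that of 3 counts, and no fold is given. The median of the list was 0.11.

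Nuclear genes of the respiratory chain gave 15 of 55 genes (27.3%, against 14.2% of all genes) wholly above and 1 (1.82%, against 8.93%) wholly below, with a median of 0.09. NDUFS6, an accessory subunit of complex I, was at 81.4, 105, 78.7 and 81.2 CPM on side A and at 11.7, 20.7, 10.3 and 12.2 CPM on side B, a log2 difference of 2.68. NDUFS8, a core subunit of the same complex, was at 128 ± 3.49 against 32.8 ± 14.1 CPM (2.02). NDUFS1, the largest subunit of that complex, went the other way without overlap, at 128 ± 8.54 against 154 ± 10.3 CPM (-0.27). Of these complex I subunits, NDUFS6 and NDUFS8 were thus higher on side A, and NDUFS1, the 1 gene of the list wholly below, was lower. The listed genes of the mitochondrial DNA and nuclear noncoding RNAs had no row under their symbols and were not analysed here. Transcript lengths and base composition were not used here, so a relation of the difference to either was not tested.

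APOE (101112253) was at 2815, 3397, 2712 and 2787 CPM on side A and at 1152, 1911, 905 and 817 CPM on side B. The sides did not overlap, and the log2 difference was 1.35 (2928 ± 316 against 1196 ± 497 CPM), or 2.54-fold. Other astrocyte genes differed in both directions. SLC1A3, the glial glutamate transporter GLAST, was separated in the opposite direction, at 1269 ± 72.2 against 1589 ± 151 CPM (-0.32). GJA1, the gap junction protein connexin 43 (-0.27), and SPARCL1, a secreted matrix protein (-0.24), were separated downwards too. GFAP, the intermediate filament of astrocytes, was at 6716 ± 634 against 5996 ± 634 CPM (0.17) with overlapping pools. Of 16 astrocyte genes, 8 were higher and 8 lower on side A, 3 were separated upwards (APOE, FGFR3 and AGT) and 3 downwards, 18.8% each way against 14.2% and 8.93% of all genes. The median of -0.04 changed sign in 1 of 16 alternatives. The summed level was 21448 to 23721 CPM against 20452 to 21992 CPM, and CLU had no row.

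Myelin genes differed unevenly between the sides. MBP (101109407) was at 2121, 2542, 2580.4 and 1925 CPM on side A and at 1388, 1253, 1103 and 1131 CPM on side B, a log2 difference of 0.92 (2292 ± 321 against 1219 ± 130.2 CPM) with no overlap. FA2H, an enzyme of myelin lipid synthesis (0.78), MAG, a myelin adhesion molecule (0.66), MAL, a sorting protein (0.41), SOX10, the oligodendrocyte transcription factor (0.39), and CLDN11, a tight junction protein (0.20), were separated upwards with MBP. MOG (-0.06), MOBP (-0.10) and ERMN (-0.37), other proteins of the sheath, overlapped. In all, 11 of 20 were higher and 9 lower on side A, 6 (30%, against 14.2% of all genes) were separated upwards and 0 (against 8.93%) downwards. The median was 0.04, and -0.02 with upper-quartile scaling.

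Single synaptic genes were higher or lower on side A without overlap, while the class as a whole gave an upward share near that of all genes. CPLX1, a complexin that clamps vesicle fusion, was at 29.9, 37.2, 29.0 and 32.0 CPM on side A and at 7.05, 10.6, 5.54 and 6.63 CPM on side B (log2 difference 2.12). Its close relative CPLX2 was at 225 ± 19.7 against 211 ± 20.3 CPM (0.10) with overlapping pools. NRXN2, a presynaptic adhesion molecule, was at 114, 196, 170.0 and 131 CPM against 50.5, 78.3, 68.6 and 46.1 CPM (1.33). PCLO, a giant scaffold of the active zone, was at 47.2 ± 1.98 against 62.4 ± 4.78 CPM (-0.40), and RIMS2, another active-zone protein, had -0.36, both without overlap. SYN1, a vesicle phosphoprotein, was separated by only 0.15, and SNAP25, of the fusion machinery, overlapped at -0.15. Of 24 vesicle and active-zone genes, 12 were higher and 12 lower on side A, 4 (16.7%) were separated upwards and 4 (16.7%) downwards, against 14.2% and 8.93% of all genes. The median of -0.01 changed sign in 7 of 16 alternatives.

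On the postsynaptic side, GRIN1, the obligate subunit of NMDA receptors, was at 235, 326, 281 and 235 CPM against 127, 166, 150.3 and 113 CPM (0.96). GRIA3, an AMPA receptor subunit, was lower without overlap (57.4 ± 3.82 against 69.6 ± 5.16 CPM, -0.28). Of 22 postsynaptic genes, 10 were higher and 12 lower, with 3 (13.6%) separated upwards and 1 (4.55%) downwards, no larger shares than the 14.2% and 8.93% of all genes (median -0.06). Among 22 ion channels, HCN2, a pacemaker channel, had a log2 difference of 0.84 and CACNA1C, the L-type calcium channel, of 0.49, while KCND2, an A-type potassium channel, had -0.41 and KCNMA1, the BK channel, -0.22, all without overlap. The channels were higher in 7 and lower in 15 (45% of all genes were higher), with a median of -0.09. Only 2 (9.09%) were separated upwards and 2 (9.09%) downwards, against 14.2% and 8.93% of all genes. General neuronal markers were higher in 5 and lower in 9 of 14 (median -0.13). Among them MAP2, a dendritic cytoskeletal protein, was separated downwards at 795 ± 57.7 against 957 ± 66.8 CPM. Of the 14 markers, 2 (14.3%) were separated upwards and 1 (7.14%) downwards, shares near those of all genes. The summed level of these neuronal markers was 6674 to 6892 CPM on side A and 6672 to 7155 CPM on side B, and TUBB3 had no row.

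Granule proteins held one of the widest splits. PCSK1N (proSAAS, a small inhibitor of the prohormone convertase PCSK1) was at 348, 457, 338 and 449 CPM on side A and at 54.0, 108, 27.3 and 45.0 CPM on side B, a log2 difference of 2.87, or 7.33-fold. VGF, a granule protein cleaved into peptides, was at 309, 451, 545 and 466 CPM against 95.6, 95.3, 116 and 157 CPM (1.94), and CHGA, chromogranin A, at 2239 ± 312 against 1575 ± 155 CPM (0.51). Their counterparts SCG2 (1925 ± 115 against 2361 ± 205 CPM, -0.29), SCG3 (287 ± 38.9 against 386 ± 52.7 CPM, -0.42) and PAM, the amidating enzyme (461 ± 19.3 against 565 ± 61.5 CPM, -0.30), were lower on side A without overlap. Hence 3 of the 10 genes compared (30%) were separated upwards and 3 (30%) downwards, against 14.2% and 8.93% of all genes, and PCSK2 had no row.

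Of 24 other neuropeptide genes, 17 were higher and 7 lower on side A (median 0.34), where 45% of all genes were higher. Wholly above lay 9 (37.5%, against 14.2% of all genes) and wholly below 1 (4.17%, against 8.93%). HCRT, the orexin precursor of the lateral hypothalamus, was at 19.8, 26.3, 25.4 and 28.1 CPM against 5.83, 9.56, 6.59 and 7.07 CPM (1.77). GAL (galanin) was at 29.6 ± 3.79 against 8.82 ± 1.18 CPM (1.75), CCK (cholecystokinin) had a log2 difference of 1.37, NMB (neuromedin B) of 1.28 and CRH (corticotropin-releasing hormone) of 1.13, all without overlap. PMCH, the melanin-concentrating hormone precursor made by neurons that neighbour the orexin cells, was at 232 ± 50.7 against 335 ± 65.4 CPM (-0.53) with overlapping pools. NPVF, the RFRP precursor of the dorsomedial nucleus, was separated downwards, at 8.64, 8.81, 8.78 and 8.76 CPM against 16.0, 11.4, 13.2 and 12.8 CPM (-0.61). NPW was at 1.23 to 2.75 CPM against 0.0659 to 0.213 CPM, the lowest value again being that of 3 counts, and no fold is given. SST and UCN3 were listed at 0 in all pools, and QRFP and PROK2 were below the filter.

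**Figure D4:**
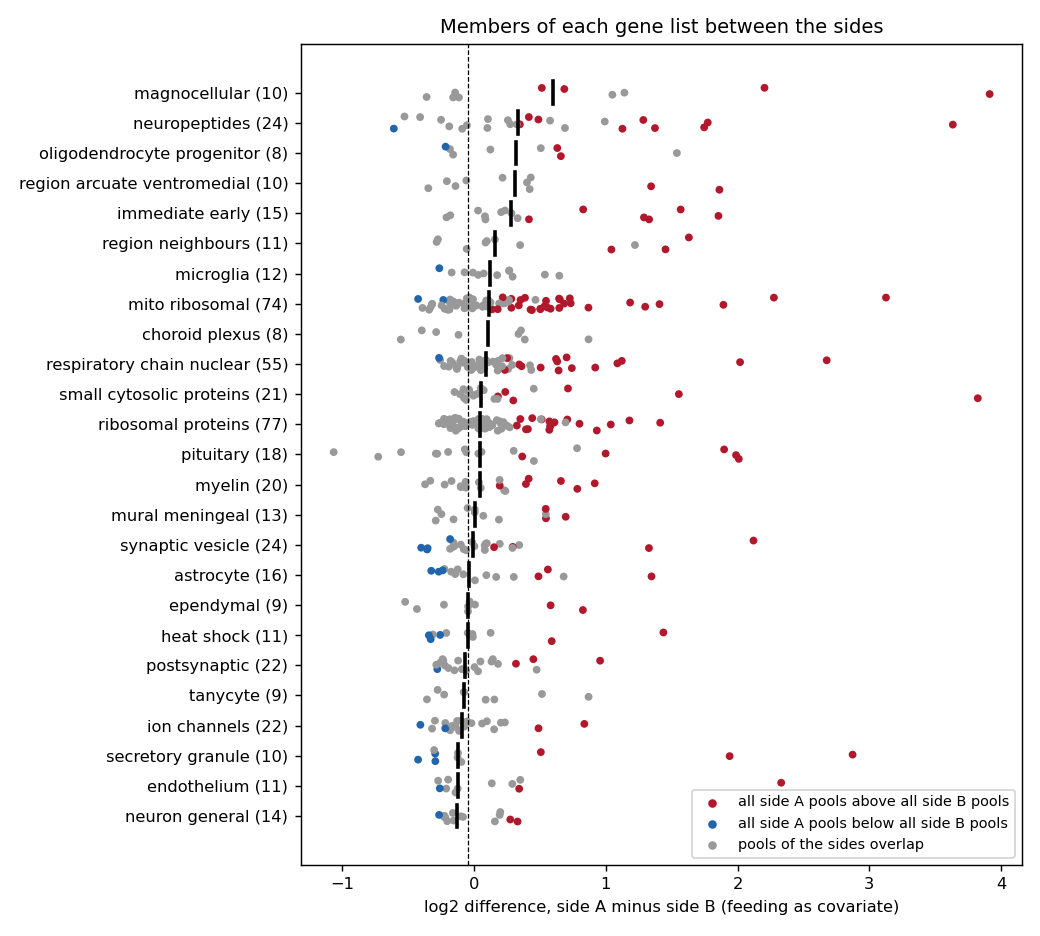
Each dot is a gene of the list named at the left (number compared in brackets), placed by its log2 difference between the sides. Red dots are genes with all side A pools above all side B pools, blue dots the reverse and grey dots genes whose pools overlap; the black bars are list medians, the dashed line is the median of all genes, and most lists show a few red genes far to the right of a body near the dashed line.

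Markers of other cell types that a block of this tissue can hold were measured beside these results, and their part in the result was not tested. The counts of separated genes in these short lists stand beside the same 14.2% wholly above and 8.93% wholly below of all genes. Choroid plexus genes (8 compared) and tanycyte genes (9 compared) gave 0 members without overlap, and summed to 51.1 to 90.0 against 46.8 to 87.7 CPM and to 1371 to 1519 against 1310 to 1584 CPM. For ependymal cells, 2 of 9 genes were separated upwards, FOXJ1 (0.58), the master factor of motile cilia, and RARRES2 (0.83). Of 12 genes of microglia, 0 were separated upwards and 1, P2RY12 (-0.26), a purine receptor, downwards. The red-cell list had 2 genes above the filter and summed to 0.838 to 4.13 CPM against 0.373 to 1.91 CPM, with HBB at 0 in food-restricted pool 3. CLDN5, the tight junction protein of brain endothelium, was at 14.4, 22.7, 16.1 and 15.2 CPM against 3.43, 4.29, 2.28 and 3.64 CPM (2.33). PECAM1, an endothelial adhesion molecule, was at 34.9 ± 1.04 against 38.6 ± 3.45 CPM (-0.14), and FLT1, a VEGF receptor, was lower without overlap (-0.26). Of 11 endothelial genes, 5 were higher and 6 lower on side A. Separated upwards were 2, CLDN5 and ENG (0.34), and downwards 1, so the endothelial genes did not go together either. Pericyte, smooth muscle and meningeal genes gave 3 of 13 separated upwards, TAGLN (0.70), PTGDS (0.55) and COL1A1 (0.54), and 0 downwards, and the 3 histone genes above the filter overlapped.

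Among 8 oligodendrocyte progenitor genes, OLIG1 (0.66) and CSPG4 (0.63) were separated upwards (25%, against 14.2% of all genes). PDGFRA, the receptor that defines these cells, was separated downwards (-0.22), or 12.5% of the list against 8.93% of all genes. Regional transcription factors were mostly low in level. SIX6, of the ventral and suprachiasmatic hypothalamus, was at 11.9, 21.8, 16.4 and 16.8 CPM against 7.75, 10.7, 6.28 and 8.03 CPM (1.04), and FOXB1, of the mammillary area, had 1.63. SOX14 had 1.86, with side A pools from 3.04 to 12.7 CPM. TBX3, of arcuate neurons, was at 131 ± 9.18 against 137 ± 16.4 CPM (-0.06), and ISL1, needed for POMC and AGRP neurons, had -0.35 with overlapping pools. Of 10 arcuate and ventromedial genes 2 (20%) were separated upwards, and of 11 genes of neighbouring areas 3 (27.3%), against 14.2% of all genes. In both lists 0 were separated downwards, against 8.93% of all genes, and lists this short leave such shares uncertain.

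Activity-induced genes and chaperones were also parted gene by gene. JUNB, a subunit of the AP-1 factor, was at 60.9, 77.7, 64.5 and 57.9 CPM against 15.3, 29.3, 13.0 and 16.0 CPM (1.86), and JUN, another AP-1 subunit, was at 110.4 ± 19.4 against 45.5 ± 7.46 CPM (1.29). FOS, their partner, overlapped at 125 ± 11.7 against 106 ± 18.4 CPM (0.23). One of the 2 rows named IER2 had 1.57 without overlap and the other -0.21 with overlap, so a value for that symbol is uncertain. Of 15 rows of this class 13 were higher on side A (45% of all genes were), 6 (40%, against 14.2%) separated upwards and 0 (against 8.93%) downwards. HSPB1, a small heat shock protein, was at 412, 427, 396 and 474 CPM against 134, 171, 145 and 181 CPM (1.44). HSPD1, the mitochondrial chaperonin (-0.34), HSPA8, the constitutive HSC70 (-0.33), and HSP90AA1 (-0.26) were lower on side A without overlap. Of the 11 chaperone genes, 2 (18.2%) were separated upwards and 3 (27.3%) downwards, against 14.2% and 8.93% of all genes.

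Whether listed or not, the 10 named genes at 5 CPM or more with the largest upward separation were OXT, MIF, RTN4R, TNFRSF6B, CCDC85B, SPON2, PPP1R14A, C1QTNF4, SIVA1 and PCSK1N. Of these, OXT, MIF and PCSK1N are list members described above. RTN4R, the Nogo receptor of neurons, was at 6.06, 16.4, 9.15 and 10.4 CPM against 0.513, 1.64, 0.417 and 0.572 CPM, a log2 difference of 3.80. CCDC85B, a small coiled-coil protein, was at 131, 177, 137 and 121 CPM against 15.2, 26.2, 7.58 and 10.2 CPM (3.37), and PPP1R14A, a small phosphatase inhibitor, at 49.0 ± 6.85 against 6.25 ± 1.88 CPM (3.00). The remaining ones had 3.75 (TNFRSF6B), 3.12 (SPON2), 2.96 (C1QTNF4) and 2.90 (SIVA1). All 10 had food-restricted pool 4 as the highest side B pool.

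Downward differences were far smaller. ADGRL4, an endothelial adhesion receptor, had the largest among named genes, at 10.5, 11.5, 10.9 and 12.1 CPM against 18.2, 17.7, 23.2 and 19.1 CPM (log2 difference -0.80, or 1.74-fold lower on side A). TRIM59 (-0.73), CCDC15 (-0.68), the RNA helicase genes DDX52 (-0.67) and DDX58 (RIG-I, -0.66), FPGT (-0.65), MEDAG (-0.65), ZNF792 (-0.65), IFI44L (-0.64), an interferon-induced gene, and ACSL5 (-0.63), a fatty acid activating enzyme, followed. Among these 10 the side B means lay between 7.95 and 22.4 CPM.

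Both feeding groups showed the split. It was wider in the well-fed pools for each of the 7 markers, but not over all genes. The SD over genes of the difference was 0.61 within the well-fed and 0.64 within the food-restricted pools. The log2 difference within the well-fed and within the food-restricted pools was 4.96 and 2.94 for OXT, 4.83 and 3.03 for MIF, 2.64 and 1.78 for AVP, 2.43 and 1.60 for PITX1, 2.28 and 1.61 for POMC, 1.68 and 1.06 for APOE, and 1.00 and 0.82 for MBP. Across genes, the differences within the 2 groups had a Pearson r of 0.515, which is a description, since the sides were chosen on both groups and genes are not independent replicates. Whether the feeding effect differed between the sides was tested on the same values that set the sides, so the spread left in the fit was reduced by that choice and p-values may be too small. By edgeR's quasi-likelihood test of the interaction, 0 of 18193 genes (0%) were called at an adjusted p of 0.05, the lowest adjusted p being 0.999. At an unadjusted p under 0.05 there were 375 genes, fewer than the 910 expected by chance. For MIF the interaction was -1.92 (SE 0.42) and for OXT -1.99 (SE 0.74), neither called (edgeR adjusted p = 0.999 for both).

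DESeq2 called 2 genes in that contrast, LHB and POLR2L, a small subunit of RNA polymerases that was named after its values were seen. LHB had a difference between the sides of 3.14 within the well-fed and 1.01 within the food-restricted pools (DESeq2 interaction -2.10, adjusted p = 0.000648; edgeR -2.09, SE 0.39, adjusted p = 0.999). POLR2L was at 70.01, 77.6, 74.3 and 85.1 CPM on side A and at 28.8, 39.3, 10.04 and 16.5 CPM on side B (DESeq2 interaction -1.49, adjusted p = 0.0293). Its side A pools were alike in both feeding groups, and its side B pools were lower in the well-fed pair. With no filter on low counts edgeR called 18 genes at the interaction, and without food-restricted pool 3 it called 1.

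**Figure D5:**
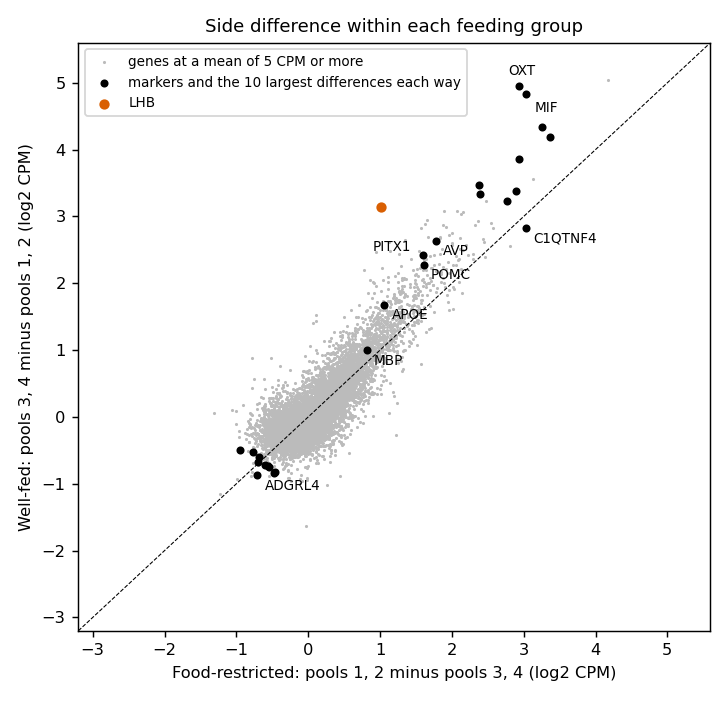
Log2 difference between the sides within the food-restricted pools (horizontal) and within the well-fed pools (vertical), 2 pools against 2 in each, for genes at a mean of 5 CPM or more (grey). Black dots are the 7 markers and the 10 named genes with the largest difference each way, orange is LHB and the dashed line marks equal differences; all markers lie above the line, and C1QTNF4 below it.

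The error of the feeding comparison is given here without and with the side in the fit, and its fall follows in part from how the sides were chosen. With feeding alone in the fit, the biological coefficient of variation (the typical spread of a gene between pools beyond counting error) was 28.3%, and it was 20.1% with the side added. The standard error of the feeding difference was smaller with the side in the fit in 14974 genes (82.3%), and its median went from 0.186 to 0.142. The sides are the largest axis of spread in these values, so a smaller spread is built into that choice, and p-values with the side in the fit may be too small. At an unadjusted edgeR p under 0.05 there were 309 genes without and 817 with the side, both fewer than the 910 expected by chance. The 7 markers show the change in error. The food restriction difference of POMC was -0.11 (SE 0.61) without and 0.11 (SE 0.22) with the side, that of MIF 0.04 (SE 1.08) and 0.81 (SE 0.33), and that of OXT 0.23 (SE 1.14) and 0.89 (SE 0.43). APOE had 0.36 (SE 0.44) and 0.50 (SE 0.15), AVP 0.17 (SE 0.70) and 0.45 (SE 0.24), PITX1 -0.03 (SE 0.62) and 0.21 (SE 0.20), and MBP 0.12 (SE 0.30) and 0.15 (SE 0.10). None of the 7 was called in either fit (edgeR adjusted p of 1 without and of 0.991 or 0.992 with the side).

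The number of genes called for feeding was 1 (0.0055%) without and 6 (0.033%) with the side, 2 higher (0.011%) and 4 lower (0.022%) in food-restricted pools, and AGRP was called in both. AGRP was at 193, 137, 146 and 144 CPM in food-restricted pools 1 to 4 and at 38.2, 47.1, 60.7 and 56.9 CPM in well-fed pools 1 to 4. It rose by 1.61 (SE 0.17) and 1.63 (SE 0.12) on the log2 scale in the respective fits (edgeR adjusted p = 0.0296 and 2.6e-05). With feeding alone in the fit and any 1 of the 8 pools left out, AGRP was no longer called (edgeR adjusted p = 0.0706 to 0.215). NPY, released by the same neurons, was at 201, 147, 90.5 and 125 CPM in food-restricted and 29.6, 39.5, 84.9 and 85.1 CPM in well-fed pools 1 to 4. Within each group it was higher on side A, by 0.69 in food-restricted and 1.31 in well-fed pools, and its SE for feeding went from 0.35 to 0.16 with the side in the fit (edgeR adjusted p = 1 and 0.00404). The genes called lower with the side were ARRDC2, HSPA6, ZBTB16 and FKBP5, which glucocorticoids or stress induce. Their log2 differences between the sides were 0.29, -0.05, -0.10 and -0.21. Each side holds both feeding groups, so a feeding difference by itself makes the sides overlap, and overlap says little for these genes. Within each group ARRDC2 was higher in both side A pools, by 0.31 in food-restricted and 0.26 in well-fed pools. FKBP5 was lower on side A in food-restricted pools (-0.39) and little different in well-fed pools (-0.03). In the same order, the differences were -0.20 and 0.02 for ZBTB16 and 0.07 and -0.16 for HSPA6. The adjusted p-values of the 4 genes without and with the side were 0.661 and 0.0102 for ARRDC2, 0.34 and 0.0294 for HSPA6, 0.925 and 0.0487 for ZBTB16, and 1 and 0.0487 for FKBP5 (edgeR).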

How the data were processed

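RNA sequencing counts of 8 pools were used. Per the labels' protocols, RNA was isolated with TriReagent and libraries were made with a stranded TruSeq mRNA kit, and the series' design text calls the pools biological replicates. P-values measure only the spread between these pools. The authors deposited raw counts per gene, 1 column per pool, per the file headers. The submitters' processing notes name, among others, the aligner TopHat2 2.1.1, its companion Bowtie2 2.3.5.1 and the counter featureCounts 2.0.0. For the genome build, annotation, strand setting and reads shared by genes the entry is "not given in the sources used here", so overlapping genes and near-identical copies are uncertain.

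Of 33609 genes, 10254 had 0 counts in every pool. Names came from the table, and from a RefSeq gene table of ARS-UI_Ramb_v3.0 (names only; 28100 IDs or 83.6% matched, 471 LOC names replaced). Genes were kept by edgeR's filterByExpr (at least 10 counts in enough pools and 15 in total; 18193 kept), and TMM factors were computed in edgeR 4.0.16 under R 4.3.3. Principal components used log2 CPM with a prior count of 2. Differences between the sides are coefficients of a quasi-likelihood fit with feeding and side, given with no test or error beside the pool values and their SD, since the sides were chosen on these values. Feeding and the interaction with side were tested with glmQLFTest and Benjamini-Hochberg adjustment at 0.05. SE is the absolute log2 value over the square root of F. Totals by side had an exact permutation test. The fits were tested on simulated data. Figures used matplotlib 3.10.9 in Python 3.11.15.

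The members, the 30 gene lists (27 with genes above the filter) and the tests were chosen with earlier results of these data known. Named were the 7 markers, up to 5 members of each list with the largest differences at 5 CPM or more and others needed to account for a list, the 10 largest separated differences each way, called genes and NPY. Alternatives were DESeq2-type (RLE), upper-quartile and library-total scaling, other filters, no feeding covariate, a replicate block, DESeq2 1.42.0 and each pool left out. Some genes of the lists are not reported here by name.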

Additional observations from a re-analysis of the deposited data

Results flagged for a closer look

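In 298 checks of a pool against the other 3 of its feeding group, over 149 values, 4 values, in 3 pools, stood far from the rest, where chance alone would give about 1 in 20, or 14.9. AGRP was at 193 CPM in food-restricted pool 1 and between 137 and 146 CPM in the other 3 food-restricted pools. SOX14, a transcription factor of the region, was at 12.7 CPM in food-restricted pool 2 and between 1.75 and 3.04 CPM in the others. In food-restricted pool 3, DIO2, which activates thyroid hormone, was at 82.6 CPM with the others between 53.4 and 57.0 CPM, and RYR2, an intracellular calcium channel, was at 59.4 CPM with the others between 42.4 and 42.8 CPM.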

How the results depend on the processing

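In 14 other settings of the principal component analysis (other scalings, a prior count of 0.5, the 500 or 5000 most variable genes, each pool left out), all pools kept their side, with 31.1% to 41.6% of the variance. Of 2336 recomputed differences of 146 named genes, 2334 moved by less than the spread and 2 by more, RTN4R (4.55) and TNFRSF6B (4.35) without food-restricted pools 1 and 4, a setting added after seeing the data. Without these pools 4072 genes lay wholly above and 3482 wholly below on side A, 1395 and 147 of them at least 2-fold, and medians were -0.0212 for all genes, 0.77 for magnocellular genes, 0.42 for neuropeptides, 0.014 for endothelium, 0.18 for mural and meningeal genes, 0.46 for oligodendrocyte progenitors and -0.13 for chaperones. Upper-quartile scaling gave 2476 genes wholly below and medians of -0.11 for all genes, -0.0153 for myelin and -0.11 for chaperones, and library totals gave -0.0852 for all genes. Genes wholly below and at least 2-fold lower numbered 151 with no filter and 13 with at least 1 CPM in 4 pools.

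Leaving out 1 pool gave 2757 to 3421 genes wholly above, 1564 to 2716 wholly below, 794 to 1133 at least 2-fold above and 78 to 93 at least 2-fold below, with fewer pools to separate. List medians then ranged from -0.0475 to -0.0249 for all genes, 0.0076 to 0.14 for myelin, -0.28 to 0.13 for choroid plexus, -0.13 to -0.003 for endothelium, 0.15 to 0.44 for progenitors, 0.11 to 0.42 for neighbouring areas, 0.0079 to 0.16 for small cytosolic proteins, -0.37 to 0.90 for histones (3 genes), 0.49 to 0.74 for magnocellular genes, 0.30 to 0.40 for neuropeptides and -0.11 to -0.0204 for ion channels. The exact p for total counts ranged from 0.286 to 0.971, and the direction turned without well-fed pool 2 (0.971) or 3 (0.686).

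The feeding comparison called 1 gene, 6 with the side in the fit, 4 in DESeq2, and 0 with any 1 pool left out, where AGRP had an edgeR adjusted p of 0.0706 to 0.215. With the replicate number as a block it called 0 (117 at an unadjusted p under 0.05, where 910 are expected by chance). Same-numbered pools of the 2 groups had correlations of -0.42 to -0.21, and 0 of 4 correlated best with their own number. Same-numbered pools always lay on opposite sides, and the side was not removed first. This check therefore could not show whether the numbers mark a pairing. The interaction gave 0 to 1 calls with 1 pool left out, 18 with no filter and 2 in DESeq2. The cause of these changes was not tested. Differences by protein length, and their alternatives, were not run, since no lengths were used here.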
